A study of Arabidopsis thaliana with 12 samples.

Results

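The aliphatic glucosinolate genes described here are 10 loci of Arabidopsis thaliana, out of 19710 genes in either deposited table, and were taken by locus ID. They are the regulator genes MYB28 (AT5G61420), MYB29 (AT5G07690) and MYB76 (AT5G07700), the side-chain elongation genes MAM1 (AT5G23010), MAM3 (AT5G23020) and BCAT4 (AT3G19710), the core synthesis genes CYP79F1 (AT1G16410), CYP79F2 (AT1G16400) and CYP83A1 (AT4G13770), and the side-chain modification gene FMO GS-OX1 (AT1G65860). All 10 were in the pfd4 table and 9 in the 6x_pfd table, where MYB76 was not listed. RNA came from whole seedlings of the Col-0 ecotype grown in vitro. The labels give pfd4 seedlings of 14 days, with WT of the same age, under LD (the usual name of long days) at ZT1, and 6x_pfd seedlings of 7 days, with WT of the same age, under LL (the usual name of continuous light). Each of the 4 groups has 3 libraries. The titles of the 14-day libraries carry the word mock, the labels describe no treatment, and they name no allele behind pfd4 or 6x_pfd. Prefoldin is a cytosolic co-chaperone complex of PFD1 to PFD6 that delivers unfolded tubulin and actin to the chaperonin CCT, and the comparisons ask which transcripts differ in its mutants.

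Aliphatic glucosinolates are sulfur-rich defence compounds made from methionine in Arabidopsis and its relatives. Methionine is first deaminated by BCAT4 and lengthened in cycles that begin with a methylthioalkylmalate synthase (MAM). The lengthened amino acid is oxidised to an aldoxime by CYP79F enzymes and further by CYP83A1, converted to the core glucosinolate, and then altered in its side chain, for example by S-oxygenation. The R2R3-MYB factors MYB28, MYB29 and MYB76 activate the genes of the pathway, together with the bHLH factors MYC2, MYC3 and MYC4. Myrosinases split the compounds into toxic products when tissue is damaged.

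The values are those of the authors' deposited tables. They give 1 mean normalized count per gene over both genotypes, a log2 fold change, its standard error (SE, after ±) and the adjusted p-value of DESeq2's Wald test. A gene was called at an adjusted p below 0.05. The tables used hold no values per library, so the spread between the 3 libraries of a group enters only through the SE, and depth per library is unknown. The mean normalized counts summed to 2.92e+07 in the pfd4 table and 3.24e+07 in the 6x_pfd table. The headers do not say which genotype is on top of the fold change. It was read as mutant over WT, the reading under which the prefoldin genes are lower in the mutants, so their values do not check the labels. PFD4 was lower in pfd4 at -1.99 ± 0.17 in the authors' deposited table (adjusted p = 1.01e-29), while 5 of 6 prefoldin genes were lower in 6x_pfd and PFD6 was at -0.16 ± 0.10 (adjusted p = 0.217) there. Both organs of the seedling were represented: 10 and 11 of 12 root markers and 10 of 10 leaf photosynthesis markers were listed in the pfd4 and 6x_pfd tables.

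In 6x_pfd seedlings at 7 days, all 9 aliphatic glucosinolate genes in the table were lower than in WT. These 9 genes cover the regulators, side-chain elongation, core synthesis and, by FMO GS-OX1 alone, side-chain modification. Their log2 fold changes ran between -1.14 and -0.55 with a median of -0.93, so each gene stood at 0.454 to 0.683 of its WT level. Of all 19380 genes tested, 16.8% were called lower, 16.9% higher and 33.6% in either direction, and the median log2 fold change was 0.00. Of 6 further side-chain modification genes in that table, 3 were called higher and 1 lower. After centring on equal derived totals of both genotypes, 66.1% of the called genes among all tested were higher, beside 50.2% as deposited. The 9 genes were called lower after that centring too. In a test against a change of 25%, added after seeing the data, 5 of the 9 passed, and MYB28, MAM3, CYP79F2 and FMO GS-OX1 did not; 4.13% of all genes passed that test as lower. In pfd4 seedlings at 14 days 1 of the 10 genes, MAM1, was called, and it was higher. None was lower by DESeq2's adjusted p, and at an unadjusted p below 0.05 there were 3 higher and 0 lower, where 8.68% of all genes tested were higher and 10.3% lower at that threshold. The background in pfd4 was 3.94% of 18363 genes called higher, 3.81% called lower and 7.75% in either direction. The pfd4 median of the 10 genes was 0.17, beside 0.00 over all genes tested. Because the samples are bulk seedlings, fewer expressing cells and less RNA per cell cannot be told apart.

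**Figure D1:**
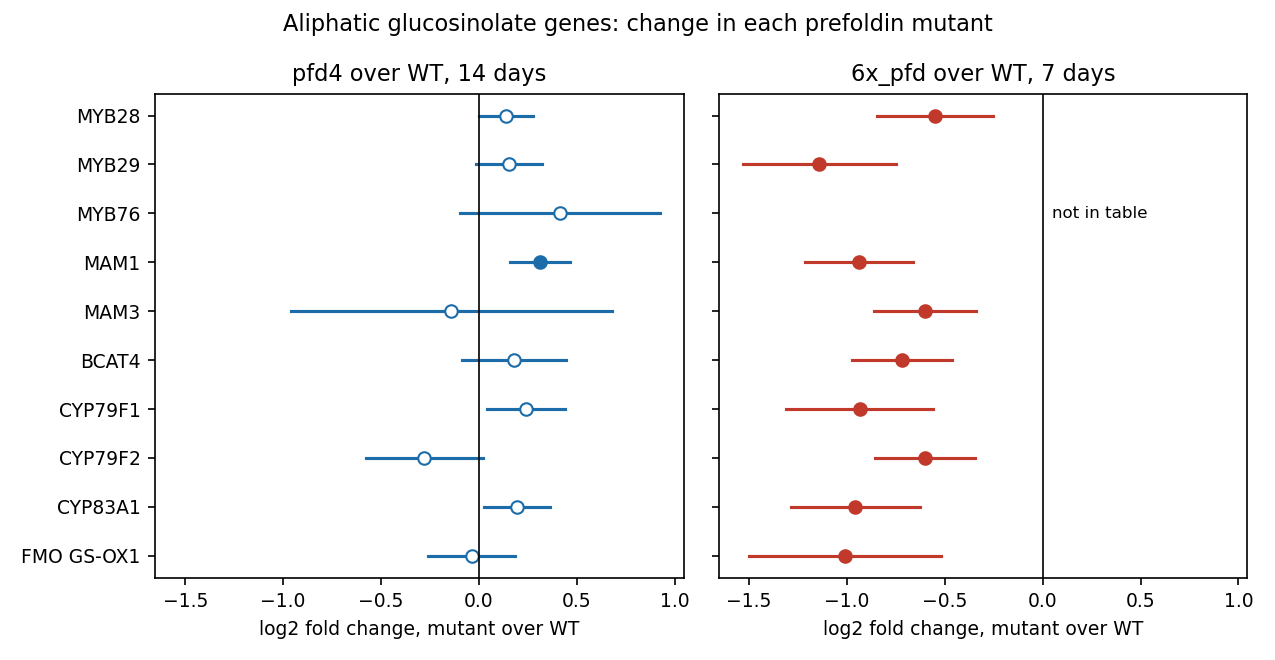
Log2 fold change of each aliphatic glucosinolate gene, mutant over WT, in pfd4 at 14 days (left panel) and 6x_pfd at 7 days (right panel), from the authors' deposited tables. Points are fold changes, bars are 95% intervals from the SE, and filled points passed an adjusted p of 0.05: the 9 filled points of 6x_pfd lie between -1.14 and -0.55, and MAM1 at 0.31 is the filled point of pfd4.

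The position of these genes among all genes differed between the mutants. In 6x_pfd, MYB29 had a log2 fold change lower than all but 1.75% of the genes tested, and MYB28, the least changed of the 9, lower than all but 8.0%. In pfd4, the same percentages were 10.06% for CYP79F2, 23.3% for MAM3 and 42.2% for FMO GS-OX1. Those of the other genes all lay between 77.3% for MYB28 and 95.2% for MYB76. The 95% intervals of the 9 changes in 6x_pfd all overlapped those of MYB28 and MYB29 at the ends of the range. Overlap of intervals does not decide whether 2 changes differ, and the order of the genes by size of change was not tested.

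**Figure D2:**
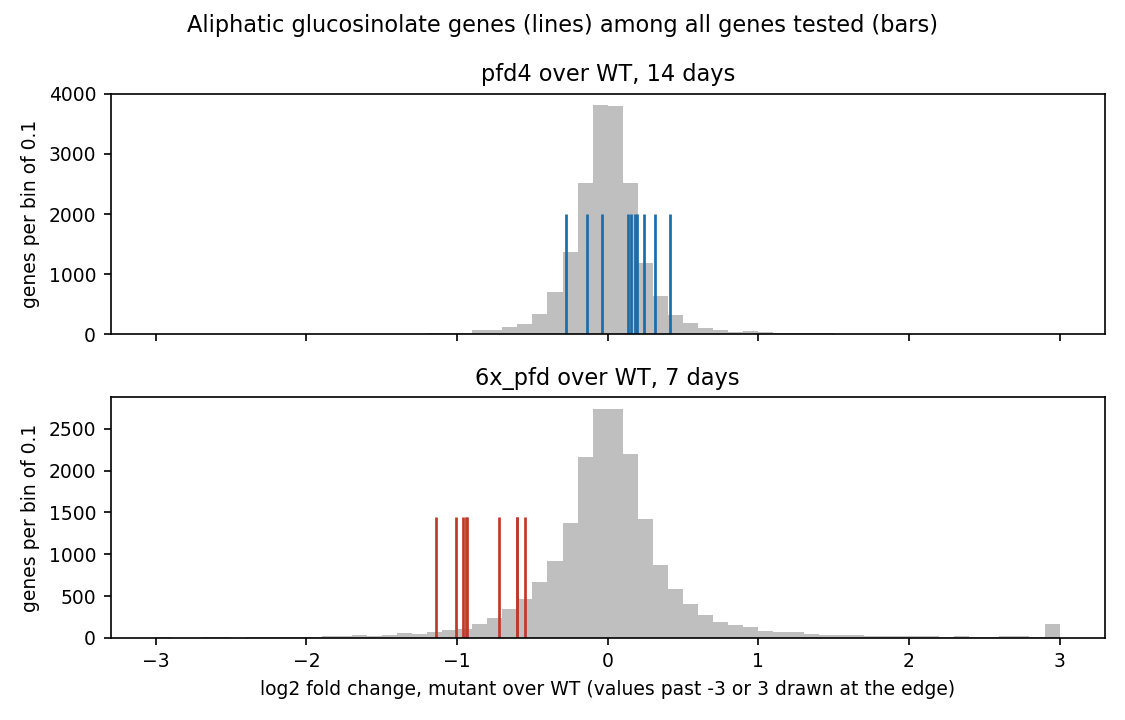
Histograms of the log2 fold changes of all genes tested (grey bars, in genes per bin) with the aliphatic glucosinolate genes as vertical lines, pfd4 over WT above and 6x_pfd over WT below. In pfd4 the 10 lines lie within the bulk of genes, from -0.28 to 0.41, and in 6x_pfd the 9 lines lie in the lower tail, from -1.14 to -0.55.

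The regulators come first. MYB28, a principal activator of the aliphatic pathway, lies on chromosome 5 (chr5:24689069-24691187, minus strand, TAIR10.1). In 6x_pfd its log2 fold change was -0.55 ± 0.15 per the authors' deposited table (adjusted p = 0.0015), a level 0.683 of that in WT with a 95% interval of 0.556 to 0.839. Mean normalized counts per group were derived from the deposited mean and fold change, and for MYB28 they were 1641 in 6x_pfd, against 2403 in WT. In pfd4 MYB28 was at 0.14 ± 0.07 in the authors' deposited table (adjusted p = 0.272), with derived means of 3659 in pfd4 and 3329 in WT.

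MYB29, which acts beside MYB28 and is known in Arabidopsis for its part in the response of the pathway to jasmonate, had the largest decrease of the 9 genes in 6x_pfd, -1.14 ± 0.20 in the authors' deposited table (adjusted p = 1.60e-07). Its derived mean was 222 normalized counts in 6x_pfd, against 488 in WT. In pfd4 it was at 0.15 ± 0.09 in the authors' deposited table (adjusted p = 0.333), with 1946 counts in pfd4 and 1751 in WT. MYB76, the third member of this MYB subgroup, was the least abundant of the 10 genes, with derived means of 79.6 normalized counts in pfd4 and 59.8 in WT at 14 days. Its log2 fold change in pfd4 was 0.41 ± 0.26 in the authors' deposited table (adjusted p = 0.415), with a 95% interval from -0.10 to 0.92. Per length it stood at 1.83 in pfd4 and 1.38 in WT (normalized counts per kilobase, scaled to a total of 1000000), near the low end of a table that its name says was filtered at a minimum RPKM, and it was not analysed in 6x_pfd.

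MYB29 (chr5:2446669-2448584, plus strand) and MYB76 (chr5:2450027-2451807, plus strand) are next to each other in the TAIR10.1 annotation, 1442 bases apart. Their coding sequences were 78.1% identical over the aligned bases, and those of MYB28 and MYB29 77.8%. No stretch of 50 bases of 1 of these 3 transcripts occurred unchanged in another.

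Side-chain elongation was lower in 6x_pfd at each of its 3 genes. BCAT4, the aminotransferase that starts the route by deaminating methionine (chr3:6846969-6849582, minus strand), was at -0.72 ± 0.13 in 6x_pfd in the authors' deposited table (adjusted p = 3.83e-07). The derived means of BCAT4 were 1807 normalized counts in 6x_pfd, against 2974 in WT. In pfd4 BCAT4 was at 0.18 ± 0.14 in the authors' deposited table (adjusted p = 0.535), with derived means of 5611 in pfd4 and 4955 in WT.

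MAM1, whose enzyme condenses the early, short-chain rounds of elongation, was the gene that was called in both mutants, and the directions were opposite. In 6x_pfd MAM1 was at -0.94 ± 0.14 in the authors' deposited table (adjusted p = 4.44e-10), with derived means of 2654 in 6x_pfd and 5084 in WT. In pfd4 MAM1 rose by 0.31 ± 0.08 in the authors' deposited table (adjusted p = 0.00229), with derived means of 7492 in pfd4 and 6038 in WT. That increase is 24.1%, with a 95% interval of the ratio from 1.12 to 1.38, and MAM1 did not pass in pfd4 when tested against a change of 25%, which 0.697% of all genes passed as higher.

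MAM3, listed by RefSeq as IMS2, encodes the synthase known for its range of chain lengths, the long ones included. It was at -0.60 ± 0.13 in 6x_pfd in the authors' deposited table (adjusted p = 4.79e-05), with derived means of 1255 in 6x_pfd and 1904 in WT. In pfd4 MAM3 was at -0.14 ± 0.42 in the authors' deposited table (adjusted p = 0.916), with derived means of 1780 in pfd4 and 1962 in WT. That SE was the widest of the 10 genes in either mutant, where the median SE of all genes was 0.126 in pfd4, so changes between -0.96 and 0.68 lie within its 95% interval. MAM1 (chr5:7703041-7706973, plus strand) and MAM3 (chr5:7718118-7721866, plus strand) are neighbouring coding genes 11144 bases apart, with coding sequences 83.8% identical and no shared stretch of 50 bases.

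Core synthesis was lower in 6x_pfd at each of its 3 genes as well. CYP79F1, the cytochrome P450 that makes aldoximes from short-chain and long-chain methionine derivatives, was at -0.93 ± 0.19 in 6x_pfd in the authors' deposited table (adjusted p = 1.0e-05). The derived means of CYP79F1 were 1382 normalized counts in 6x_pfd, against 2640 in WT. CYP79F2, which acts on the long-chain derivatives, was at -0.60 ± 0.13 in 6x_pfd in the authors' deposited table (adjusted p = 2.88e-05), with 714 in 6x_pfd and 1084 in WT.

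In pfd4 neither gene was called. CYP79F1 was at 0.24 ± 0.10 in the authors' deposited table (adjusted p = 0.136), with derived means of 5505 in pfd4 and 4656 in WT. CYP79F2 was at -0.28 ± 0.15 in the authors' deposited table (adjusted p = 0.313), with derived means of 873 in pfd4 and 1059 in WT. The point values thus lay on opposite sides of 0, and the difference between the genes was not tested.

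CYP79F2 (chr1:5605044-5607498, plus strand) and CYP79F1 (chr1:5608682-5612064, plus strand) stand 1183 bases apart, and their coding sequences were 91.9% identical, the closest of the gene pairs compared. The stretch of 120 coding bases in which they are most alike is shown because short reads from it can fit either gene. It is in the second coding exon of each gene, at chr1:5609945-5610064 for CYP79F1 and chr1:5606377-5606496 for CYP79F2, both on the plus strand of RefSeq TAIR10.1. The capital marks the 1 base that differs, T21C, counted from 1 at the start of the stretch with the CYP79F1 base first.
CYP79F1: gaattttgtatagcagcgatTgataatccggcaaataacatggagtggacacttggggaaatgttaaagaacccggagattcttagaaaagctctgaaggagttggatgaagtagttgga
CYP79F2: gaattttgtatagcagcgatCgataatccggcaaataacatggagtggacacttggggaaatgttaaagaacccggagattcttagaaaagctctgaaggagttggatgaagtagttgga
Of the windows of 50 bases in the CYP79F1 transcript 2.0% occurred unchanged in CYP79F2, and 2.74% of those in CYP79F2 occurred in CYP79F1. The sources used here do not say how the authors counted reads that fit both genes, so the split of counts between them carries that uncertainty.

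CYP83A1, the P450 that oxidises the aldoximes (chr4:7990429-7992429, minus strand), had the highest mean normalized count over both genotypes of the 10 genes in the pfd4 table. In the 6x_pfd table the deposited means of CYP83A1 (3876) and MAM1 (3869) were close, and the derived mean in 6x_pfd itself was higher for MAM1. CYP83A1 was at -0.96 ± 0.17 in 6x_pfd in the authors' deposited table (adjusted p = 1.63e-07), with derived means of 2634 in 6x_pfd and 5117 in WT. In pfd4 CYP83A1 was at 0.19 ± 0.09 in the authors' deposited table (adjusted p = 0.169), with derived means of 9429 in pfd4 and 8241 in WT.

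FMO GS-OX1, a flavin monooxygenase that turns methylthioalkyl into methylsulfinylalkyl glucosinolates (chr1:24498954-24502776, minus strand), was at -1.01 ± 0.25 in 6x_pfd in the authors' deposited table (adjusted p = 3.56e-04). Its derived means were 208 normalized counts in 6x_pfd, against 418 in WT. In pfd4 it was at -0.04 ± 0.11 in the authors' deposited table (adjusted p = 0.917), with 1148 counts in pfd4 and 1179 in WT. MYB29 and FMO GS-OX1 were the 2 genes of the 9 that were called with a log2 fold change of 1 or more in size, as were 2.33% of all genes on the lower side. Both are in the authors' deposited short list of 1186 genes for 6x_pfd, while none of the 10 is in the short list of 198 genes for pfd4.

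The 250 bases before the annotated start of each gene were read from RefSeq TAIR10.1 and searched on both strands for the G-box CACGTG, which bHLH factors such as MYC2 bind, and for ACCNAAC, a form of the sites of R2R3-MYB factors. The G-box was in 1 of the 10 windows, beside 6.49% of the windows of 27443 protein-coding genes, and ACCNAAC in 2 of 10, beside 14.5%. The 2 windows that hold a match are shown with the matches in capitals, CYP83A1 at chr4:7992430-7992679 and FMO GS-OX1 at chr1:24502777-24503026, each written on the minus strand, 5′ to 3′ towards the gene.
CYP83A1: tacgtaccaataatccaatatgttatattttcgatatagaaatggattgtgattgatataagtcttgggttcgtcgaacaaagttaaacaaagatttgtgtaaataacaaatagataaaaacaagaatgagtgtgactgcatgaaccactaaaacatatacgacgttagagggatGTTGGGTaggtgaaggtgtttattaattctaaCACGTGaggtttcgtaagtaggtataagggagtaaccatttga
FMO GS-OX1: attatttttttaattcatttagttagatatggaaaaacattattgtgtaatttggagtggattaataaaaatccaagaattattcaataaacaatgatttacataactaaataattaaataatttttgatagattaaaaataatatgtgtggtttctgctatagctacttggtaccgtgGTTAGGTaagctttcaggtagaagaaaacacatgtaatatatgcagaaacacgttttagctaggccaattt
In CYP83A1 the ACCNAAC match, here as its reverse complement, begins 75 bases and the G-box 43 bases before the gene, and in FMO GS-OX1 the match begins 71 bases before it. The windows of the other 8 genes held neither string, which says only that these letters are not in them.

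Levels were compared between genes per length, as derived normalized counts per kilobase of transcript, scaled so that the table's mean normalized counts sum to 1000000. In WT at 7 days MAM1 (84.6) and CYP83A1 (82.8) were highest, followed by BCAT4 (63.3), MYB28 (39.1), MAM3 (32.2), CYP79F1 (29.7), CYP79F2 (16.6), MYB29 (8.72) and FMO GS-OX1 (7.44). In 6x_pfd the order was the same, with MAM1 at 44.1, CYP83A1 at 42.6 and BCAT4 at 38.5, and with MYB29 at 3.96 and FMO GS-OX1 at 3.70 at the low end. Summed over the 9 genes, without regard to length, the derived means came to 387 in 6x_pfd, against 683 in WT, on this scale. The scale sets the mean over both genotypes to a total of 1000000, so these are not shares of each genotype's own total. The derived totals differed by a log2 ratio of -0.08, 6x_pfd over WT. A spread over libraries is not given for these levels, so which neighbours in the order differ beyond it was not tested.

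At 14 days the derived means of the 10 genes summed to 1284 in pfd4, against 1137 in WT, on the same scale and without regard to length. Per length, CYP83A1 was highest, at 169 on this scale in pfd4 and 148 in WT, followed by MAM1 (138 in pfd4, 111 in WT) and BCAT4 (132 in pfd4, 117 in WT). CYP79F1 (68.7 in pfd4, 58.1 in WT) and MYB28 (65.9 in pfd4, 59.99 in WT) lay in the middle. MYB29 (38.5 in pfd4, 34.6 in WT), MAM3 (33.3 in pfd4, 36.7 in WT), FMO GS-OX1 (22.7 in pfd4, 23.3 in WT) and CYP79F2 (14.8 in pfd4, 17.95 in WT) came before MYB76. That is the order in pfd4; in WT, BCAT4 stood above MAM1, MYB28 above CYP79F1 and MAM3 above MYB29. The tables were normalized separately and differ in age and light regime, so levels were not tested between them.

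**Figure D3:**
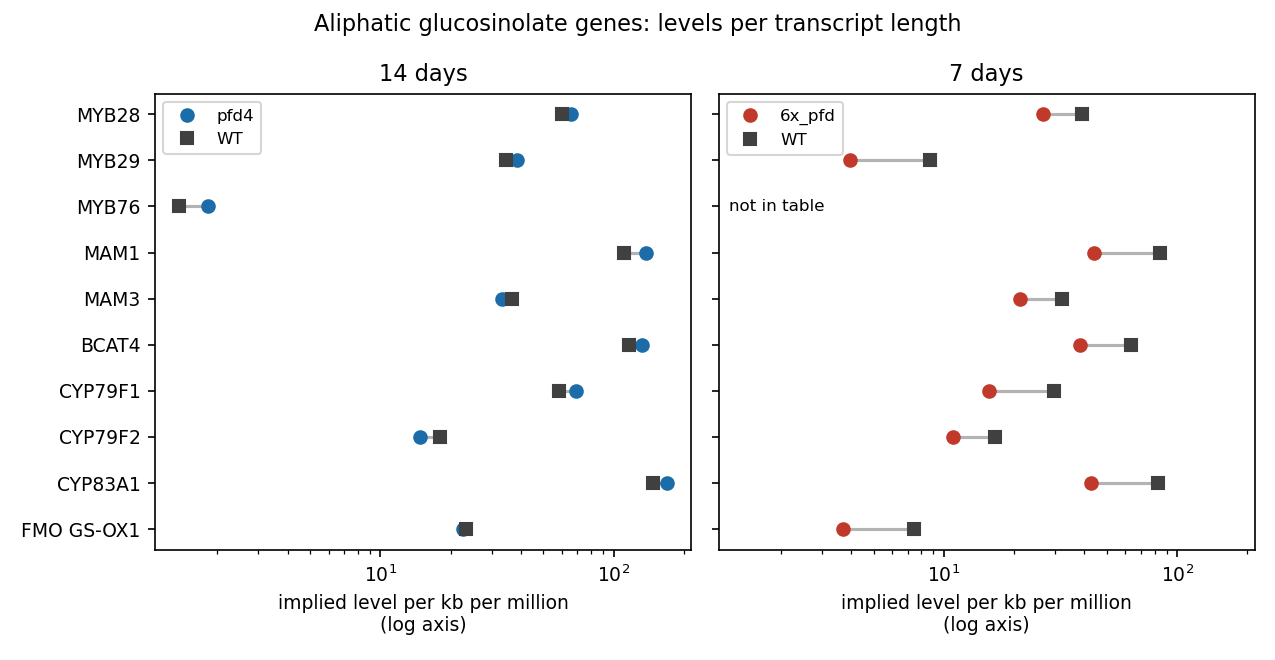
Derived level of each aliphatic glucosinolate gene per kilobase of transcript, scaled to a total of 1000000 normalized counts, on a log axis, mutant (circles) and WT (squares), at 14 days with pfd4 (left panel) and at 7 days with 6x_pfd (right panel). The 9 circles of 6x_pfd lie left of their WT squares, for MAM1 44.1 against 84.6. The symbols of pfd4 and its WT lie closer together, for MAM1, the called gene, 138 against 111 and for MYB76 1.83 against 1.38.

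The change differed between the mutants for 7 of the 9 genes in both tables. The difference of log2 fold changes, 6x_pfd minus pfd4, was tested with a two-sided Wald test and Benjamini-Hochberg adjustment over 18035 genes, of which 12.0% were called below 0. For MYB29 the difference was -1.29 ± 0.22 (adjusted p = 9.12e-08), for MAM1 -1.25 ± 0.16 (adjusted p = 6.73e-13), for CYP79F1 -1.18 ± 0.22 (adjusted p = 1.43e-06) and for CYP83A1 -1.15 ± 0.19 (adjusted p = 3.76e-08). FMO GS-OX1 (-0.97 ± 0.27), BCAT4 (-0.90 ± 0.19) and MYB28 (-0.69 ± 0.17) passed as well. MAM3 (-0.46 ± 0.44, adjusted p = 0.50) and CYP79F2 (-0.32 ± 0.20, adjusted p = 0.252) did not, and their 95% intervals, from -1.32 to 0.40 and from -0.71 to 0.07, leave room for a difference. Genotype, age and light regime change together between the experiments and cannot be told apart in this test.

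Of 8 further genes of side-chain elongation 5 were called lower and 1 higher in 6x_pfd, beside 16.8% and 16.9% of all genes tested. Their median was -0.41. BAT5, the plastid carrier of the 2-oxo acids, was at -0.76 ± 0.15 and the dehydrogenase gene IMD1 at -0.69 ± 0.13 in the authors' deposited table. IPMI1, for a small subunit of the isomerase, was at -0.56 ± 0.16 and the aminotransferase gene BCAT3 at -0.35 ± 0.10 in the authors' deposited table. SSU1, for the isomerase small subunit known from leucine synthesis, rose by 0.27 ± 0.09 (adjusted p = 0.0076) in the authors' deposited table; it was named after its value was seen. In pfd4 none of these 8 genes was called by DESeq2's adjusted p, and at an unadjusted p below 0.05 the count was also 0. Their log2 fold changes lay between -0.15 and 0.19.

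Of 8 further core synthesis genes, 5 were lower and 0 higher in 6x_pfd, beside 16.8% and 16.9% of all genes tested. Their median was -0.32. At an unadjusted p below 0.05 there were 6 lower and 0 higher, beside 20.4% and 20.8% of all genes in 6x_pfd. The glutathione transferase genes GSTU20 (-0.69 ± 0.17) and GSTF11 (-0.68 ± 0.18), the C-S lyase gene SUR1 (-0.35 ± 0.09) and the glucosyltransferase gene UGT74C1 (-0.30 ± 0.09) belonged to these 5 in the authors' deposited table. SUR1 also serves the indole branch. In pfd4, 1 of the 8 was called, GSTU20, which rose by 0.30 ± 0.10 (adjusted p = 0.027) in the authors' deposited table.

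Side-chain modification did not move in 1 direction. Of 9 further genes 6 were in both tables, and in 6x_pfd 3 of these were higher and 1 lower. Of all genes tested there, 16.9% were higher and 16.8% lower. FMO GS-OX2 (1.38 ± 0.17, adjusted p = 2.24e-15) and FMO GS-OX4 (1.43 ± 0.15, adjusted p = 2.39e-19) rose in the authors' deposited table, whereas their relative FMO GS-OX1 fell. The coding sequences of FMO GS-OX2 and FMO GS-OX4 were 79.6% identical, with no shared stretch of 50 bases. FMO GS-OX5, whose enzyme prefers long chains, rose by 0.27 ± 0.08 in the authors' deposited table. AOP2, the dioxygenase gene of alkenyl glucosinolates, was at -0.94 ± 0.26 in the authors' deposited table (adjusted p = 0.00131); Col-0 is known to lack a working AOP2 enzyme. None of the 6 was called in pfd4 by DESeq2's adjusted p, and 2 were lower at an unadjusted p below 0.05.

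Among 7 other regulators 1 was called in each mutant. Of all genes tested, 16.9% were called higher and 16.8% lower in 6x_pfd, and 3.94% and 3.81% in pfd4. SDI1, a sulfur-deficiency gene whose protein is known to restrain MYB28 in Arabidopsis, rose by 1.34 ± 0.18 in 6x_pfd (adjusted p = 8.19e-12) in the authors' deposited table. MYC2 rose by 0.35 ± 0.09 in pfd4 (adjusted p = 0.00572) in the authors' deposited table. In 6x_pfd MYC2 was at 0.33 ± 0.18, MYC3 at 0.00 ± 0.09 and MYC4 at -0.21 ± 0.13, none of them called, in the authors' deposited table. Of 7 sulfate activation and reduction genes, the reductase gene APR1 rose in 6x_pfd by 0.43 ± 0.10 (adjusted p = 3.16e-04) in the authors' deposited table, and none was called in pfd4, at an unadjusted p below 0.05 included. Of 3 transporter genes, GTR1 rose in 6x_pfd by 0.60 ± 0.13 (adjusted p = 1.73e-05) in the authors' deposited table. GTR3 was at -0.30 ± 0.10 in pfd4 in the authors' deposited table (adjusted p = 0.049), and did not pass after centring on equal totals or on the median.

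Genes of glucosinolate breakdown were mixed, with 4 of 9 higher and 1 lower in 6x_pfd and 2 of 8 lower in pfd4. Of all genes tested, 16.9% were higher and 16.8% lower in 6x_pfd, and 3.81% were lower in pfd4. The beta-glucosidase gene BGLU30, listed by RefSeq as DIN2, rose by 2.13 ± 0.28 in 6x_pfd and fell by 1.87 ± 0.38 in pfd4 in the authors' deposited table. The nitrile-specifier gene NSP5 (0.63 ± 0.11) and the epithiospecifier gene ESP (0.64 ± 0.15) rose in 6x_pfd in the authors' deposited table. ESM1, a modifier of epithiospecifier action, was lower in both mutants, at -0.85 ± 0.17 in 6x_pfd and -0.51 ± 0.10 in pfd4 in the authors' deposited table. The classical myrosinase genes TGG1 (-0.13 ± 0.09 in 6x_pfd, -0.22 ± 0.12 in pfd4) and TGG2 (-0.05 ± 0.13 in 6x_pfd, -0.07 ± 0.13 in pfd4) were not called in the authors' deposited table.

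The indole branch makes glucosinolates from tryptophan with its own MYB and P450 genes. In 6x_pfd 2 of its 11 genes were lower and 1 higher, beside 16.8% and 16.9% of all genes tested. The median of the indole genes was 0.02 in 6x_pfd, beside -0.93 for the 9 aliphatic genes. The methyltransferase gene IGMT1 (-1.61 ± 0.19) and the P450 gene CYP79B3 (-0.54 ± 0.09) were lower and the sulfotransferase gene SOT16 (0.18 ± 0.06) higher in the authors' deposited table. In pfd4, where 10 were listed, MYB51, an activator of the indole branch, rose by 0.996 ± 0.17 and MYB34, another activator, was at -0.33 ± 0.11 in the authors' deposited table (adjusted p = 0.0476 for MYB34). MYB34 did not pass in pfd4 after either centring. The difference between the branches was not tested.

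**Figure D4:**
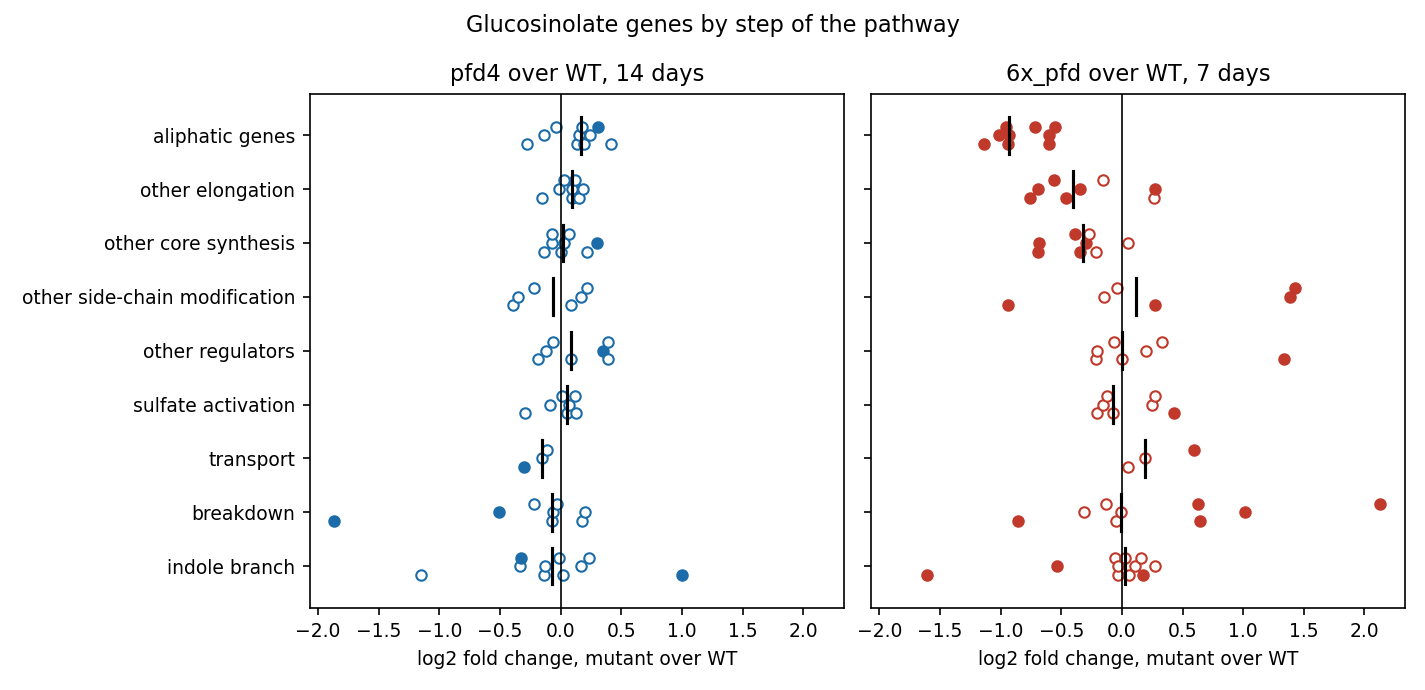
Log2 fold change, mutant over WT, of each glucosinolate gene by step of the pathway, in pfd4 (left panel) and 6x_pfd (right panel), from the authors' deposited tables. Filled points passed an adjusted p of 0.05, black bars are list medians and height within a row has no meaning: in 6x_pfd the medians of aliphatic (-0.93), other elongation (-0.41) and other core genes (-0.32) lie left of 0, and that of the indole branch is at 0.02.

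The light-harvesting genes among the leaf markers were lower in 6x_pfd, as the aliphatic genes were, and the Rubisco genes were not called. Of 10 leaf photosynthesis markers 8 were lower and none higher in 6x_pfd, all of them light-harvesting genes with log2 fold changes between -1.76 and -0.81 in the authors' deposited table, while the Rubisco small subunit genes RBCS1A (0.16 ± 0.16) and RBCS3B (-0.22 ± 0.15) were not called there. The derived means of the 10 markers summed to 31127 in 6x_pfd, against 51564 in WT, where the mean over both genotypes totals 1000000. Before that scaling RBCS1A had derived means of 352941 in 6x_pfd and 316435 in WT, and RBCS3B of 102845 and 119928. Of 11 root markers 4 were higher and none lower in 6x_pfd, and they summed to 275 on the same scale in 6x_pfd, against 243 in WT. The shares of all genes tested in 6x_pfd were 16.9% called higher and 16.8% called lower. In pfd4, 5 of 10 leaf markers were higher and 2 of 10 root markers lower, beside 3.94% and 3.81% of all genes tested. All 10 root markers lay below 0 in pfd4, with a median of -0.49. At an unadjusted p below 0.05, 7 of them were lower, beside 10.3% of all genes. The leaf markers had a median of 0.22, and 7 were higher at that threshold, beside 8.68% of all genes. Leaf and root markers summed to 52528 and 106 in pfd4, against 47371 and 135 in WT. The part of leaf and root composition in the changes of the aliphatic genes was not tested.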

How the data were processed

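Per the labels' protocols, the 12 whole-seedling samples were sequenced as stranded mRNA libraries. The submitters' processing notes name DESeq2, HTSeq, HISAT2, cutadapt and the build TAIR10 for the authors' work, without versions or roles. Per the file headers, the deposited tables hold a mean normalized count (a signal of counts over size factors), a log2 fold change with its SE, the Wald score, and p-values before and after adjustment. Their names state a minimum RPKM filter. The tables hold no values per library, so depth per library is unknown, and no count model, leave-one-out fit or interval on counts was possible. The deposited tests were therefore used as they stand, the fallback named in the design. The authors' adjustment was recomputed by the Benjamini-Hochberg method and differed by at most 2.67e-15; 3 and 17 genes of the pfd4 and 6x_pfd tables had no p-value.

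Group means were derived from the mean count and fold change, assuming equal weight for both groups of 3 libraries. Lengths are of the RefSeq transcript with the longest coding sequence. The difference between the mutants used a Wald test on the 2 deposited log2 fold changes and SEs (scipy 1.17.1). Its code was run on simulated fold changes drawn with those same SEs. Such a run cannot check whether the SEs are right. Sequences and positions are RefSeq's for TAIR10.1, joined by locus ID; 99.6% of the genes of each table matched. The deposited tables hold no coordinates, and the authors' build name, TAIR10, differs. Coding sequences were aligned with biopython 1.88. The design text calls the samples biological, but the labels name no separate cultures, so p-values measure the spread between these samples, which may be technical in part.

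The 10 members and the 8 lists of 62 other glucosinolate genes were chosen with earlier results of these data known. Named are the 10 members, up to 4 called genes with the smallest p per list and mutant, and the prefoldin genes; MYC2 in 6x_pfd, MYC3, MYC4, SSU1, TGG1, TGG2, PFD6, RBCS1A and RBCS3B were named after their values were seen. Alternatives were an adjusted p of 0.01, a log2 fold change of 1 or more in size, centring on equal totals or on the median, and a mean count of at least 100. A test against a change of 25% was added after seeing the data.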

Additional observations from a re-analysis of the deposited data

Results flagged for a closer look

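For 7 of the 9 aliphatic glucosinolate genes in both tables, the effect in 6x_pfd differed from that in pfd4 by the test of the difference itself. The difference of log2 fold changes, 6x_pfd minus pfd4, was -0.69 for MYB28, -1.29 for MYB29, -1.25 for MAM1, -0.90 for BCAT4, -1.18 for CYP79F1, -1.15 for CYP83A1 and -0.97 for FMO GS-OX1. Of all genes tested, 12.0% were called in that direction. Age and light regime differ between the experiments along with the genotype.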

How the results depend on the processing

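The counts of aliphatic genes called (9 lower in 6x_pfd, 1 higher in pfd4, 7 with a difference between the mutants) were the same at an adjusted p of 0.01, under both centrings and with a mean normalized count of at least 100. With a log2 fold change of 1 or more in size they were 2, 0 and 4, and in the test against a change of 25% they were 5, 0 and 5, with MYB28, MAM3, CYP79F2 and FMO GS-OX1 not passing in 6x_pfd. Of the 62 other glucosinolate genes listed, 12 were higher and 14 lower in 6x_pfd, where 16.9% and 16.8% of all 19380 genes tested were. Under centring on equal totals the counts were 16 and 14, while 4652 of all genes were higher and 2388 lower. Past a log2 fold change of 1 in size they were 5 and 1, beside 734 and 452 of all genes. In the test against 25% they were 5 and 4, beside 979 and 800. In pfd4, 3 of the listed genes were higher and 4 lower, beside 3.94% and 3.81% of all 18363 genes tested. Past a log2 fold change of 1 the pfd4 counts were 0 and 1, beside 147 and 51 of all genes. In the test against 25% they were 1 and 1, beside 128 and 37. The lower count was 2 at an adjusted p of 0.01 and under each centring. No paired analysis was possible because the deposited tables hold no value per library, and leaving out replicates was not run for the same reason. Low counts limit MYB76, and the SE limits MAM3 in pfd4.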
